A study of Mus musculus with 2 samples.

Results

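Macrophage nuclei of the mouse mesenteric perivascular fat were chosen by 3 genes of tissue-resident macrophages, F13a1, Mrc1 and Cd163. A barcode was a member if it held at least 500 unique molecular identifiers (UMIs, each standing for 1 captured transcript), less than 5% of them mitochondrial, and at least 4 UMIs over at least 2 of the 3 genes, at no less than 8 per 10,000 UMIs. Barcodes with more than 2 UMIs over Pax5, Bank1, Themis, Flt1, Prox1 and Muc16, genes of lymphocytes, endothelium and mesothelium, were left out. The rule found 936 members among 19480 kept barcodes, of 20146 in all. Because measured values chose the members, the levels of F13a1, Mrc1 and Cd163 and everything that sets the members apart from other nuclei are given as a description.

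The study compared mice with a floxed Prdm16 gene, which encodes a zinc-finger regulator of brown and beige fat, with mice that also carried a Cre recombinase. Single-nucleus RNA was read from 2 libraries of snap-frozen fat dissected from the mesentery, although the series title speaks of thoracic and abdominal fat and of total RNA. The control library was labelled Prdm16flox and titled wt, and the other Prdm16flox, AdopiQCre+ and titled PRDM16cKO (called here the cKO-labelled library). Both came from mice aged 11 weeks and carried the floxed allele, and by the labels only the Cre differed. The Adipoq promoter that drives this Cre is active in adipocytes and not in macrophages. How many animals each library pooled was not stated. With 1 library per genotype no difference between the libraries has a replicate check, no test was made, and every interval below is a 95% interval that covers counting error only.

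Resident macrophages live along vessels and nerves and among adipocytes, where they take up dead cells, haemoglobin, lipid and matrix fragments. They depend on colony-stimulating factor 1 and its receptor, and on transcription factors such as PU.1 and Maf. In many tissues a subset that carries the hyaluronan receptor Lyve1 and the phosphatidylserine receptor Timd4 is maintained locally. A subset with the chemokine receptor Ccr2 and much MHC class II, the complex that presents peptides to T cells, is fed by blood monocytes.

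The control library gave 586 members, 5.05% (4.66 to 5.46, exact Clopper-Pearson interval) of its 11611 kept barcodes. The cKO-labelled library gave 350 members, 4.45% (4.003 to 4.93) of 7869. The 2 intervals overlapped, and no replicate shows how far such shares vary between animals. Members held 2768047 and 1588734 UMIs in sum, with medians of 3849 and 3699 UMIs per nucleus against 7380 and 6752 over all kept barcodes. A level is given as counts per 1000000 UMIs of the nuclei summed (CPM, control library first), and levels of different genes are not compared because capture differs from gene to gene.

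Prdm16 itself, at chr4:154316125-154636873 on GRCm38, had 45 and 25 UMIs in members, a level of 16.3 and 15.7 CPM with a log2 ratio (cKO-labelled over control, as everywhere between libraries) of -0.05, -0.81 to 0.69. It stood at 17.6 and 36.6 CPM in lymphocyte nuclei and 19.5 and 28.3 CPM in adipocyte nuclei. The floxed exon is not given in the sources used here, and 3′ end counting need not register its loss, so this value does not check the labels. The 2 libraries shared 28 barcode sequences, and 1 of these was a control member and none was a member in both. A doublet caller (Scrublet) marked 1 and 0 barcodes at its automatic threshold. At the rate of 0.8% per 1000 barcodes it marked 1079 of 11611 and 495 of 7869 kept barcodes. Of the members it marked 58 of 586 and 43 of 350, which were kept.

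RNA from adipocytes was present in every nucleus class. The 15 adipocyte genes used as a gauge stood in members at 38.5% and 45.6% of their level in adipocyte nuclei, and in lymphocyte nuclei, which should lack them, at 38.6% and 45.4%. Lymphocyte nuclei were chosen by their own genes and had median depths of 3883.5 and 4200 UMIs. Where their level is given below, it is the background beside which the macrophage level is read. No level below is corrected for such RNA, and many are given without this background.

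The rule had barcodes close to each of its bounds. Of the members, 41 and 41 held exactly 4 UMIs of the 3 genes, and 74 and 69 barcodes with 3 UMIs stood just outside. Another 222 and 133 barcodes failed only the density of 8 per 10,000 UMIs, and these were deep barcodes with medians of 14321 and 15634 UMIs. The largest group left out met every other part of the rule but exceeded 2 UMIs of the 6 limiting genes, 886 and 475 barcodes, more than the members themselves.

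Bank1, a scaffold protein best known from B cells, was alone responsible for 708 and 381 of these, 79.9% and 80.2%. By the rule these barcodes had to carry at least 2 of F13a1, Mrc1 and Cd163, so their levels of these genes are given as a description. F13a1 stood at 4093 and 4530.0 CPM in them against 3172 and 2859.5 CPM in members, and Mrc1 at 1729 and 1750.1 against 1387 and 1313 CPM. Their Bank1 level was 879 and 913 CPM, between the 159 and 169.9 CPM of members and the 1701 and 1624 CPM of lymphocyte nuclei. Pax5, the factor that commits cells to the B lineage, was held low here by the limit itself, at most 2 UMIs per barcode. It stood at 9.14 and 6.095 CPM in these barcodes against 472 and 432 CPM in lymphocyte nuclei, which were chosen in part by Pax5. A Pax5 UMI was found in 5.93% and 4.20% of these barcodes. Cd79a, part of the B-cell receptor and not in the limit, stood at 2.29 and 1.43 CPM against 44.9 and 48.5 CPM in lymphocyte nuclei. Ms4a1, a B-cell surface gene also outside the limit, stood at 8.19 and 9.68 CPM against 131 and 121 CPM. Among members too, 56.1% and 56.9% had a Bank1 UMI. With Bank1 taken out of the limit the share was 11.1% (10.6 to 11.7) and 9.29% (8.66 to 9.95), intervals that did not overlap, unlike those of the members.

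**Figure D1:**
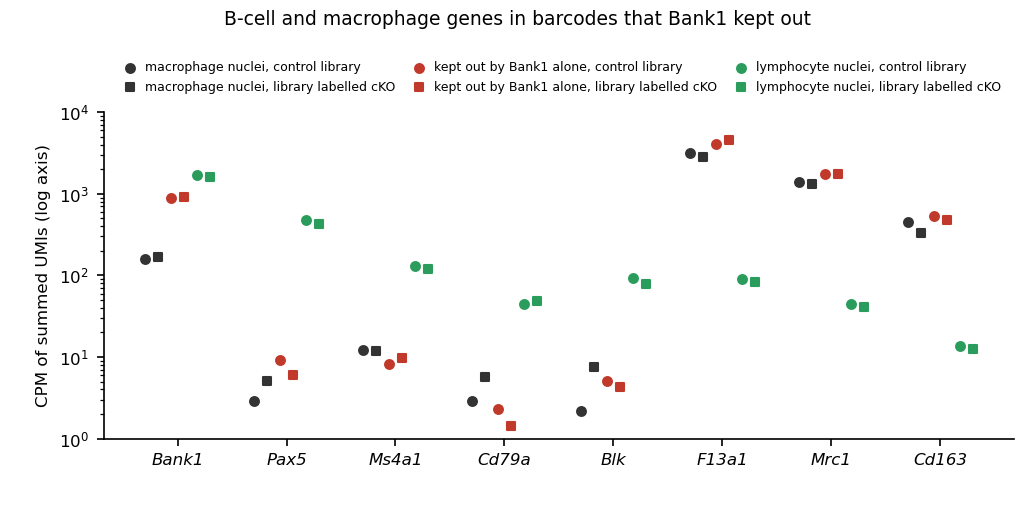
Level (CPM, log axis) of B-cell genes and of the 3 macrophage genes of the rule in members, in barcodes kept out by Bank1 alone and in lymphocyte nuclei, with both libraries drawn. Barcodes kept out by Bank1 had Bank1 at 879 and 913 CPM, Pax5 at 9.14 and 6.095 CPM and F13a1 at 4093 and 4530.0 CPM. Bank1, Pax5 and the 3 macrophage genes took part in choosing these barcodes. Cd79a, which did not, stood at 2.29 and 1.43 CPM.

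Set against members gene by gene, these barcodes were similar. Of 5373 genes, 27 (0.503%) were at least 1.5 times higher in members in both libraries and 4 (0.0744%) at least 1.5 times lower. The highest was Bcl11a, a transcription factor of dendritic and B cells, at 48.8 against 19.8 CPM and 49.1 against 22.9 CPM, followed by Il1r1, the interleukin 1 receptor, at 54.6 against 22.3 CPM and 39.7 against 19.4 CPM. These barcodes did not enter the rule's members, so they serve below as other nuclei of the same 2 libraries in which to look again at patterns among the members.

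F13a1 encodes the A subunit of clotting factor XIII, which cross-links fibrin, and lies at chr13:36867178-37050244 on the minus strand. Its level was 3172 (Poisson interval 3106 to 3239) and 2859.5 (2777 to 2944) CPM, against 90.1 and 83.2 CPM in lymphocyte nuclei. Mrc1, the mannose receptor, lies at chr2:14229392-14332057 and had a level of 1387 (Poisson interval 1344 to 1432) and 1313 (1257 to 1371) CPM, against 44.9 and 41.1 CPM in lymphocyte nuclei. Cd163, the scavenger receptor for haemoglobin bound to haptoglobin, lies at chr6:124304656-124330527, and its level was 451 (Poisson interval 426 to 477) and 335 (307 to 365) CPM. The 3 genes were unevenly shared: F13a1 had a UMI in 99.5% and 98.3% of members, Mrc1 in 96.8% and 96.6%, and Cd163 in 60.9% and 52.3%. All 3 were present together in 335 and 165 nuclei.

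The other 2 markers were not part of the rule. Aoah, at chr13:20794113-21036617, encodes a hydrolase that inactivates bacterial lipopolysaccharide and stood at 321 (Poisson interval 300.4 to 343) and 222 (199.6 to 247) CPM. It had a UMI in 54.3% (50.1 to 58.4) and 42.3% (37.1 to 47.7) of members and 7.70% and 5.56% of lymphocyte nuclei. Lair1, an inhibitory receptor for collagen at chr7:4003402-4063204, stood at 131 (Poisson interval 118 to 145) and 108 (92.7 to 126) CPM. It had a UMI in 33.4% (29.6 to 37.4) and 24.6% (20.2 to 29.4) of members and 5.38% and 5.85% of lymphocyte nuclei. Both markers were thus far above the background level in both libraries. The receptors that define macrophages more widely were also present. Csf1r, the receptor for colony-stimulating factor 1, stood at 185 and 149.8 CPM against 11.1 and 11.4 CPM in lymphocyte nuclei, and Adgre1, the F4/80 antigen, at 271 and 211 CPM against 31.8 and 16.8 CPM. The nuclei thus carried the receptors by which macrophages are recognised, in both libraries.

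**Figure D2:**
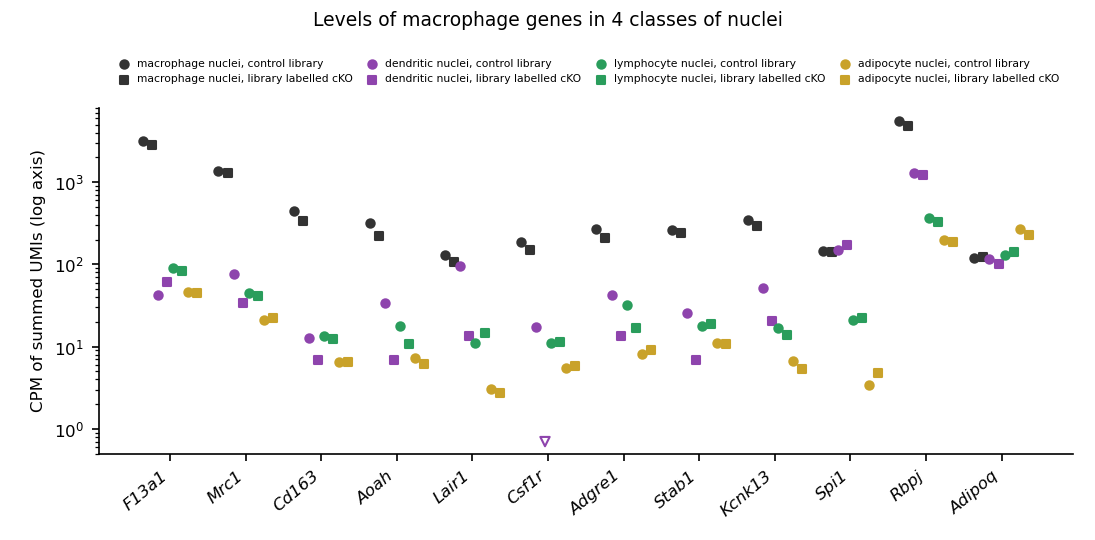
Level (CPM, log axis) of 12 genes in macrophage, dendritic, lymphocyte and adipocyte nuclei, circles for the control library and squares for the cKO-labelled one, with an open triangle for a gene with 0 UMIs. F13a1 stood at 3172 and 2859.5 CPM in macrophage nuclei, and Adipoq, an adipocyte gene, was present in every class.

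PU.1, encoded by Spi1, binds purine-rich sites with a GGAA core, and many myeloid promoters carry them close to the start of transcription. The 250 bases upstream of 5 genes that mark the members are printed here from RefSeq's promoter table (build GRCm38.p6), 5′ to 3′ on the strand of the gene, because the results below turn on these genes. Capitals mark GAGGAA or its reverse complement TTCCTC, both strands having been searched. The regions are chr2:14229164-14229413 (plus strand) for Mrc1, chr13:37050245-37050494 (minus) for the first start of F13a1, chr6:124304401-124304650 (plus) for Cd163, chr7:4063205-4063454 (minus) for Lair1 and chr12:99964249-99964498 (plus) for Kcnk13.
Mrc1: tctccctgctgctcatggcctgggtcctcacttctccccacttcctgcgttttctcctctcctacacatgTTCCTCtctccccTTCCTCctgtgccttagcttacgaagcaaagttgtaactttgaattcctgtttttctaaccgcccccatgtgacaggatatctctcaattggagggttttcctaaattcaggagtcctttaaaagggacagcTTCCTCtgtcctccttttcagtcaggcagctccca
F13a1: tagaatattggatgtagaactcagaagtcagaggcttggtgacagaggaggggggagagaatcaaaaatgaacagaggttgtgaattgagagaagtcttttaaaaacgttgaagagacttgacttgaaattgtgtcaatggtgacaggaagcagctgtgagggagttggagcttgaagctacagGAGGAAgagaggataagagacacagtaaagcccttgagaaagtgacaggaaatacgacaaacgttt
Cd163: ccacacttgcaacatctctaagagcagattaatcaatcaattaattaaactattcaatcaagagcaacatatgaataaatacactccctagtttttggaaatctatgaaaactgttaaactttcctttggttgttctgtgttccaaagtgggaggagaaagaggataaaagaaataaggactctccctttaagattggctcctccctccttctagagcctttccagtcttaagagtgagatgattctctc
Lair1: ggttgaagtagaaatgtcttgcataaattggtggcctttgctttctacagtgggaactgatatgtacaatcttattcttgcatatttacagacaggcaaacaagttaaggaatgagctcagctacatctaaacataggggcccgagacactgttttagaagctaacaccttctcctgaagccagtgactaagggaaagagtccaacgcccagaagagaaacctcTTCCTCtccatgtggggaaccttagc
Kcnk13: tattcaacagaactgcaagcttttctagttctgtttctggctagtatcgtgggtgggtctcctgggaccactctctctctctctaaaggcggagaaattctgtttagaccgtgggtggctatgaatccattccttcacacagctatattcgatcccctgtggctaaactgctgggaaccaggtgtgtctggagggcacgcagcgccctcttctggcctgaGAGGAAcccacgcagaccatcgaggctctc
The match nearest to the start lay 35 bases before it in Mrc1, which held 3, 66 before it in F13a1, 26 in Lair1 and 30 in Kcnk13. The Cd163 window held none, and neither did the windows, not printed, of the marker Aoah and of the second start of F13a1. This says only that these letters are not in those windows. Of the 25 genes named next, 19 had an entry in the table and 10 of these (52.6%) held the motif in the 250 upstream bases of at least 1 start, against 6986 of 27025 genes (25.9%) and 7639 of 32851 promoters (23.3%). A match is a description of the letters and not a binding site.

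The 25 genes highest in members against the other kept barcodes, the 3 genes of the rule aside, are described here by role. Of 3688 genes at 50 CPM or more in members of both libraries, 443 (12%) were at least 2 times and 174 (4.72%) at least 4 times the level of the rest in both, counts that the choice of the members shapes. The rest included the barcodes kept out by Bank1, which carried macrophage genes. Without any barcode that met the other parts of the rule, the ratio for Kcnk13 was 32.3 and 30.8 in place of 10.1 and 10.1.

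Kcnk13, a background potassium channel of microglia and other macrophages, led the 25 genes with 348 and 296 CPM, against 16.8 and 13.9 CPM in lymphocyte nuclei. Hrh1, a histamine receptor, followed with 109 and 88.7 CPM at 9.08 and 9.58 times the rest. Several of the 25 were receptors for soluble signals. P2ry6, which senses uridine diphosphate released from damaged cells, stood at 111 and 99.5 CPM. Ptafr, the receptor for platelet-activating factor, stood at 126 and 93.2 CPM, and Ednrb, an endothelin receptor, at 224 and 194 CPM. Gfra2, a receptor for the nerve factor neurturin, stood at 108 and 102 CPM, against 4.26 and 6.93 CPM in lymphocyte nuclei.

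Lectins and inhibitory receptors formed the next group. Clec10a, a lectin for galactose-type sugars, stood at 115 and 103 CPM and 10.1 and 8.81 times the rest, and its near-identical neighbour Mgl2 at 84.9 and 68.6 CPM, with the caution that reads may be divided between such copies. The same caution holds for the inhibitory immunoglobulin-like receptors Lilrb4a, at 88.9 and 83.7 CPM, and Pirb, at 71.2 and 73.0 CPM. Cd300lb, an activating receptor of myeloid cells, stood at 67.6 and 56.0 CPM. Sensors were represented by Tlr7, an endosomal receptor for RNA, at 88.1 and 69.9 CPM, and by Nlrp1b, an inflammasome sensor with near-identical copies, at 101 and 90.0 CPM. Pld4, a lysosomal nuclease that removes nucleic acids, stood at 93.9 and 121 CPM.

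Among the regulators, Spi1, which encodes PU.1, stood at 144 and 142 CPM against 21.0 and 22.3 CPM in lymphocyte nuclei. Rbpj, the DNA-binding factor of Notch signalling, reached 5498 and 4840.3 CPM against 363 and 333 CPM, and had a UMI in 98.1% and 96.0% of members. Tbxas1, the synthase of thromboxane, a lipid that constricts vessels, stood at 509 and 403 CPM. The remaining genes were the GTPase-activating Stard8, the receptor phosphatase Ptpro, the actin-capping Tmod1, Rassf4, and the unnamed loci Gm21188 and Gm35154, whose levels in members ranged from 74.8 CPM for Tmod1 in the control library to 326 CPM for Stard8, also in the control library. The 25 were ranked by the lower of both ratios to the rest, which was lowest for Tmod1 at 7.48 in the control library. Their ratios to lymphocyte nuclei ranged from 2.39 for Tlr7 in the cKO-labelled library to 31.2 for Clec10a in the control library.

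Dendritic nuclei, another class of the myeloid lineage, numbered 38 and 27 and were chosen by Flt3, Clec9a, Cd209a and Zbtb46. Psd3, an exchange factor for Arf GTPases, was higher in members at 2641 and 2165 CPM against 210.3 and 143 CPM in dendritic nuclei. Stab1, a scavenger receptor for modified lipoprotein and matrix, stood at 260.1 and 241 CPM against 25.8 and 6.80 CPM, and Slco2b1, an organic anion transporter, at 282 and 231 CPM against 21.5 and 0 CPM. Csf1r, already named as the receptor that macrophages depend on, stood at 17.2 and 0 CPM in dendritic nuclei. Dab2, a clathrin adaptor of endocytosis, stood at 753 and 715 CPM against 77.3 and 95.2 CPM, and Lgmn, the lysosomal protease legumain, at 199.8 and 143 CPM against 21.5 and 20.4 CPM. Lair1 gave an unequal picture, with 94.4 and 13.6 CPM in dendritic nuclei. In the other direction, the following genes were lower in members than in dendritic nuclei. Clec9a, the receptor for exposed actin of dead cells, which helped to choose the dendritic nuclei, stood at 6.50 and 1.26 CPM in members against 588 and 558 CPM. Htr7, a serotonin receptor that did not choose them, stood at 0.723 and 1.26 CPM against 146 and 218 CPM. Havcr2, the checkpoint receptor Tim-3, stood at 2.17 and 1.89 CPM against 155 and 170.0 CPM, and Tlr3, a receptor for double-stranded RNA, at 5.42 and 6.92 CPM against 129 and 149.6 CPM. Each of these differences was seen in both libraries. Not every dendritic gene was low: 6 of the 16 listed were at least 2 times the rest in both libraries, and Zbtb46, a factor of conventional dendritic cells, had 229 and 94 UMIs in members. Several of the 25 genes named above were not higher in members than in dendritic nuclei. There Spi1 stood at 150.2 and 170.0 CPM, Tbxas1 at 596.6 and 802.6 CPM and Pld4 at 128.8 and 176.9 CPM. Many others of the 25 were lower in dendritic nuclei in both libraries, among them Kcnk13 at 51.5 and 20.4 CPM.

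The summed level of 16 listed dendritic genes was 520 and 489.7 CPM in members, close to the 543 and 494 CPM of lymphocyte nuclei and far under the 6498 and 7230.5 CPM of dendritic nuclei. Some RNA foreign to macrophages was higher in the cKO-labelled library. The adipocyte list summed to 15063 and 19402 CPM in members and 15142 and 19266 CPM in lymphocyte nuclei, and the pancreas and intestine list to 217 and 544 CPM and to 189 and 1064 CPM. Granulocyte genes were nearly absent, S100a8 and S100a9 having 0 UMIs in both libraries. By a bound of 3 over the number of nuclei, this allows a UMI in up to 0.512% and 0.857% of members.

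Lists of macrophage genes, chosen with earlier results of these data known, were described next by the number of their genes at least 2 times the level of the rest in both libraries. Among the 3688 genes at 50 CPM or more in members of both libraries, 443 (12%) passed that mark. The lists also hold genes under 50 CPM, for which no such share is given. Of the 20 listed core genes of resident macrophages 17 passed that mark and 1 was below the rest in both. Folr2, a folate receptor typical of resident macrophages, stood at 32.2 and 35.9 CPM, 10.3 and 9.32 times the rest. Lyve1 stood at 85.3 and 92.5 CPM against 10.2 and 8.91 CPM in lymphocyte nuclei, and Timd4 at 123 and 91.3 CPM against 8.53 and 12.4 CPM. Timd4 had a UMI in 26.8% and 25.1% of members and in 23.7% and 18.5% of the 38 and 27 dendritic nuclei. Cbr2, a carbonyl reductase of resident macrophages, stood at 45.2 and 43.4 CPM. Igf1, an insulin-like growth factor made by many macrophages, was the exception. Its level of 334 and 456 CPM lay below the 537 and 634 CPM of adipocyte nuclei, and lymphocyte nuclei showed 186 and 339 CPM.

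Of 20 identity factors, 12 were at least 2 times the rest in both. Maf, a factor that keeps macrophages from dividing, stood at 589.9 and 558 CPM, 2.93 and 2.70 times the rest. Zeb2, a factor needed for the tissue identity of macrophages, stood at 5963 and 5069 CPM and Runx1 at 891 and 721 CPM. The proliferation genes Mki67 and Top2a stood at 7.23 and 3.78 CPM and 10.1 and 14.5 CPM. Growth factor receptors other than Csf1r included Csf2ra, the receptor for granulocyte-macrophage factor, at 53.5 and 57.9 CPM. Cx3cr1, the fractalkine receptor of monocytes and microglia, had only 43 and 10 UMIs.

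Genes of uptake were widely present. Of 20 efferocytosis and phagocytosis genes 13 were at least 2 times the rest in both, and of 10 Fc receptor genes 8. The efferocytosis list summed to 6533.5 and 5619.6 CPM in members. It summed to 6110.7 and 5195.6 CPM in lymphocyte nuclei and 6009.0 and 6788.3 CPM in dendritic nuclei. By this sum members stood close to lymphocyte nuclei, and below dendritic nuclei in the cKO-labelled library. The Fc receptor list summed to 384.03 and 353.1 CPM in members against 145.6 and 136.1 CPM in lymphocyte nuclei. Mertk, a receptor for dead cells, stood at 400.3 and 385 CPM, and Msr1, a scavenger receptor for modified lipoprotein, at 94.3 and 80.6 CPM, 7.01 and 6.48 times the rest. Fcgr2b, the inhibitory receptor for antibody, stood at 90.0 and 74.3 CPM. Marco, a scavenger receptor of alveolar and marginal-zone macrophages, had 7 and 3 UMIs, and Cd68, a common macrophage stain, 6 and 11 UMIs, so that few nuclei held either transcript.

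Of 18 complement genes, 13 passed the same mark. The 3 chains of C1q, the recognition unit of the classical pathway, stood at 50.2 and 52.2 CPM for C1qa, 81.3 and 55.4 CPM for C1qb and 43.0 and 49.1 CPM for C1qc, with log2 ratios between the libraries of 0.06, -0.55 and 0.19. Only C1qb, at -0.93 to -0.19, had an interval clear of 0. Of 14 MHC class II genes 9 passed the mark, and the lymphocyte nuclei, which include B cells, express this class themselves. H2-Aa stood at 115 and 98.2 CPM against 69.4 and 66.3 CPM in lymphocyte nuclei and Cd74, the invariant chain, at 185 and 158 CPM against 161 and 136 CPM. Cd86, a co-stimulatory ligand for T cells, stood at 135 and 169 CPM, 7.40 and 10.5 times the rest.

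Monocyte-derived and peritoneal genes were a mixed set. Ccr2 stood at 149.9 and 125 CPM against 83.0 and 88.6 CPM in lymphocyte nuclei, some of which are T cells that express it, and 9.09 and 10.5 CPM in adipocyte nuclei. Fn1, fibronectin, stood at 307 and 262 CPM against 68.2 and 51.0 CPM. The classical monocyte genes Ly6c2 and Chil3 had 2 and 1 UMIs and 0 and 3 UMIs. Gata6, the factor of large peritoneal macrophages, stood at 34.3 and 37.8 CPM, below the rest of the nuclei in both libraries at 0.572 and 0.681 times, and mesothelium expresses it too.

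The members also varied among themselves. In counts thinned to 2000 UMIs per nucleus (555 and 304 nuclei), 267 of 3625 genes had a variance at least 1.5 times the mean in both libraries, where a ratio of 1 is what counting alone gives, and the median over all genes was 1.13 and 1.12. Rbpj, with ratios of 10.0 and 10.1, varied most by the lower of both libraries, and F13a1, which chose the members, had 6.11 and 8.29. Pid1, an inhibitor of insulin signalling, had 6.098 and 5.77, Fn1 5.12 and 5.17 and Psd3 4.38 and 5.75. Cela1, a pancreatic elastase, was also among the 12 highest with 4.07 and 6.34, beside the high level of pancreatic genes in the lymphocyte nuclei of the cKO-labelled library.

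**Figure D3:**
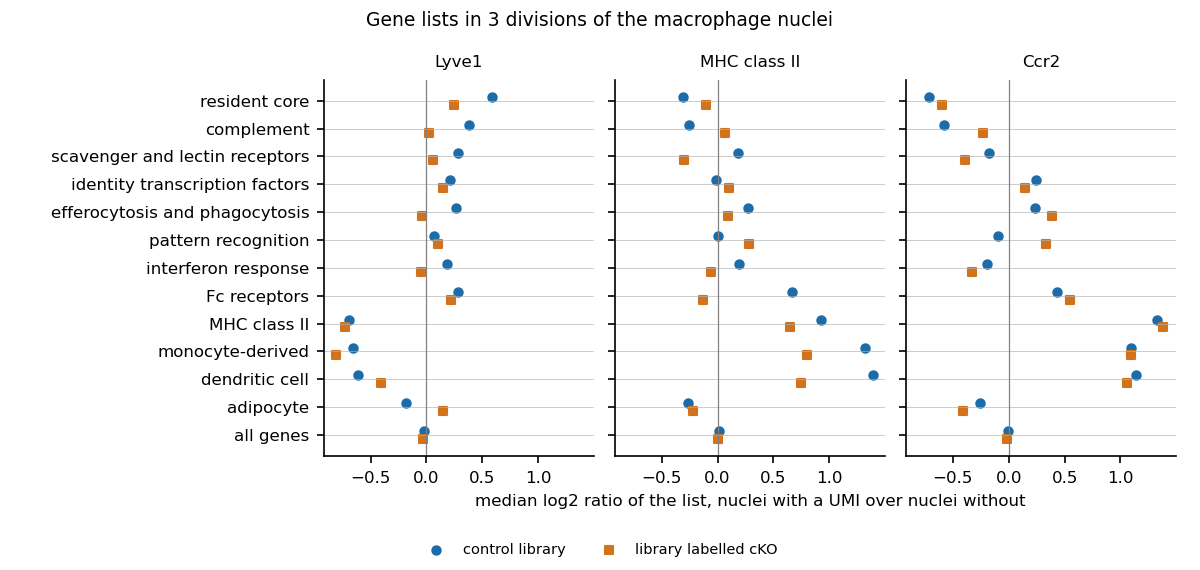
Median log2 ratio of 13 gene lists between members with and without a UMI of Lyve1, of MHC class II genes or of Ccr2, with both libraries drawn. In the division by Ccr2 the MHC class II list had medians of 1.33 and 1.38, and the resident core list -0.71 and -0.59.

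To follow this variation the members of each library were divided by genes of the known subsets, which yields ranges of nuclei and not types. A UMI of Lyve1 was found in 149 members of the control library (25.4%, 21.9 to 29.2) and 92 of the cKO-labelled library (26.3%, 21.7 to 31.2). The share was 4.94% and 5.26% in lymphocyte nuclei and 4.89% and 4.56% in the deeper adipocyte nuclei. In 94 and 64 of the nuclei the gene had exactly 1 UMI, so the division is a coarse one. Nuclei with Lyve1 were deeper, with medians of 4108 against 3807 and 4256.5 against 3407.5 UMIs.

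Of 5379 genes, 32 (0.595%) were at least 1.5 times higher in nuclei with Lyve1 in both libraries and 114 (2.12%) at least 1.5 times lower. Timd4 stood at 227 against 84.1 CPM and 111 against 81.3 CPM, log2 ratios of 1.43 (1.11 to 1.74) and 0.45 (-0.05 to 0.94). Ednrb, the endothelin receptor, stood at 359.6 against 173 CPM in the control library and 284 against 148 CPM in the cKO-labelled library. Ltc4s, the synthase of leukotriene C4, stood at 64.5 against 36.8 CPM and 77.2 against 36.9 CPM, and Plekhg5, a guanine nucleotide exchange factor, at 719 against 380.3 CPM and 606 against 337 CPM. Folr2 was also higher with Lyve1, at 52.7 against 24.4 CPM and 45.2 against 31.2 CPM. The genes lower with Lyve1 included Ndnf, Bcl11a, Cd226, Ipcef1 and Fn1. Fn1 stood at 142 against 369.9 CPM in the control library and 64.0 against 362 CPM in the cKO-labelled library, log2 ratios of -1.38 and -2.50. Ptpn22, a phosphatase that restrains immune receptors, stood at 35.6 against 92.1 CPM and 22.6 against 94.6 CPM, and Fgr, a Src-family kinase of myeloid cells, at 19.8 against 51.3 CPM and 9.41 against 60.5 CPM.

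By list, the resident core genes other than Lyve1 had medians of 0.59 and 0.25 (12 of 15 higher in both libraries), where all genes had -0.02 and -0.03. The MHC class II list had -0.69 and -0.73 (6 of 8 lower in both) and the monocyte-derived list -0.65 and -0.81 (4 of 4 lower). Among all 5379 genes, 1330 were higher and 1699 lower in both libraries. All 3 genes of the rule were themselves higher with Lyve1. The log2 ratios were 0.77 and 0.74 for F13a1, 0.70 and 0.50 for Cd163 and 0.41 and 0.36 for Mrc1. Markers of other cells also differed with Lyve1. Fibroblast genes had medians of -0.35 and -0.55 (9 of 10 lower in both), endothelial genes -0.62 and -0.78 (4 of 5), mesothelial genes -0.55 and -0.72 (4 of 4), dendritic genes -0.61 and -0.41 (3 of 5) and adipocyte genes -0.19 and 0.14. Their part in the result was not tested. Nuclei with Timd4 were 48.3% (40.1 to 56.6) of those with Lyve1 against 19.5% of those without in the control library, and 40.2% against 19.8% in the cKO-labelled library. After thinning every nucleus to 1000 UMIs these were 23.5% against 9.74% and 13.3% against 9.97%, and in the latter pair the intervals overlapped widely.

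MHC class II genes (H2-Aa, H2-Ab1, H2-Eb1 and Cd74 as 1 group) had a UMI in 391 members (66.7%, 62.7 to 70.5) and 219 members (62.6%, 57.3 to 67.7). The background was high, 53.5% and 52.0% in lymphocyte nuclei and 32.3% and 36.2% in adipocyte nuclei. Nuclei with MHC class II were deeper, with medians of 4201 against 3349 UMIs and 4220 against 2816. Of 5376 genes, 90 (1.67%) were at least 1.5 times higher in nuclei with MHC class II in both libraries and 26 (0.484%) lower. H2-DMb1, which loads peptides onto the complex, stood at 47.8 against 7.48 CPM in the control library and 57.9 against 15.6 CPM in the cKO-labelled library. Ccr2 stood at 193 against 43.6 CPM and 153 against 55.7 CPM, log2 ratios of 2.15 (1.65 to 2.69) and 1.45 (0.84 to 2.12). Ciita, the master regulator of these genes, stood at 166 against 46.1 CPM and 115 against 57.9 CPM, and Atp8b4, a lipid flippase, at 175 against 51.1 CPM and 154 against 57.9 CPM. Higher MHC class II thus went with its known regulator and with Ccr2.

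Lower in nuclei with MHC class II was Colec12, a collectin scavenger receptor, at 303 against 525 CPM and 244 against 517 CPM. Timd4 was lower as well, at 99.7 against 181 CPM and 73.7 against 136 CPM, and so was Sema6a, a transmembrane guidance ligand, at 70.2 against 169.6 CPM and 70.2 against 154 CPM. Dendritic genes stood beside these differences: Flt3 had 24 and 1 UMIs in the control library and 15 and 2 UMIs in the cKO-labelled library with and without MHC class II. The listed dendritic genes summed to 578 against 378 CPM and 552 against 332 CPM, against 6498 and 7230.5 CPM in dendritic nuclei, and their part in the result was not tested. Adipocyte genes had median log2 ratios of -0.26 and -0.22, with 15 of 20 lower in both libraries, where 1460 of 5376 genes were. Their part was not tested either.

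The division by Ccr2 set the most genes apart. Ccr2 had a UMI in 161 members (27.5%, 23.9 to 31.3) and 80 members (22.9%, 18.6 to 27.6), against 8.45% and 8.76% of adipocyte nuclei, 21.5% and 22.5% of lymphocyte nuclei and 44.7% and 70.4% of dendritic nuclei. Of 5379 genes, 208 (3.87%) were at least 1.5 times higher with Ccr2 in both libraries and 164 (3.05%) at least 1.5 times lower. Nuclei with Ccr2 were deeper, with medians of 4808 against 3579 UMIs and 4539.5 against 3332. In 67 and 31 of them Ccr2 had exactly 1 UMI.

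Fn1 stood at 718 against 116 CPM in the control library and 752 against 55.5 CPM in the cKO-labelled library, log2 ratios of 2.63 (2.41 to 2.86) and 3.76 (3.37 to 4.17). Cd226, an activating receptor of T and natural killer cells, stood at 423 against 47.1 CPM in the control library and 275 against 41.2 CPM in the cKO-labelled library, log2 ratios of 3.17 (2.83 to 3.52) and 2.74 (2.25 to 3.26), and its level in lymphocyte nuclei was 324 and 263 CPM. Kcnq1, a potassium channel, stood at 198 against 35.0 CPM and 150.4 against 26.9 CPM, and Aqp9, a channel for water and glycerol, at 75.0 against 15.4 CPM and 93.2 against 17.0 CPM. Chn2, a GTPase-activating protein for Rac, stood at 535 against 111 CPM and 574 against 75.2 CPM, and Fgr at 92.1 against 19.6 CPM and 119 against 11.6 CPM. Genes of antigen presentation were higher too: Ciita stood at 236 against 82.1 CPM and 193 against 59.1 CPM and H2-Aa at 205 against 73.1 CPM and 165 against 69.8 CPM. Itgam, the CD11b chain of an adhesion receptor, stood at 241 against 106 CPM and 235 against 45.7 CPM. Batf3, a factor needed by cross-presenting dendritic cells, stood at 90.9 against 29.1 CPM and 125 against 23.3 CPM, and Ndnf, a secreted neuron-derived factor, at 86.4 against 22.2 CPM and 174 against 7.16 CPM. Pid1 was also higher, at 5504 against 2711 CPM and 4754 against 2347 CPM.

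The genes lower with Ccr2 included many of the resident core. Timd4 stood at 48.9 against 158 CPM in the control library and 27.5 against 118 CPM in the cKO-labelled library, log2 ratios of -1.69 (-2.19 to -1.23) and -2.10 (-3.05 to -1.28). Cd209b, a lectin of tissue macrophages, stood at 6.82 against 31.2 CPM and 10.6 against 40.3 CPM, and Hmcn1, the matrix protein hemicentin, at 19.3 against 53.5 CPM and 12.7 against 48.4 CPM. Hpgds, which makes prostaglandin D2, stood at 31.8 against 84.7 CPM and 31.8 against 82.4 CPM. The scavenger receptors Stab1 and Colec12 were lower with Ccr2, at 138 against 317 CPM and 119 against 293 CPM for Stab1 and 192 against 449 CPM and 174 against 383 CPM for Colec12. Lyve1 stood at 52.3 against 101 CPM and 57.2 against 107 CPM, and the platelet-derived growth factor Pdgfc at 302 against 515 CPM and 167 against 421 CPM. Csf1r, in contrast, had log2 ratios of -0.50 and 0.12, which differed in sign, and Adgre1 of -0.07 and 0.04. Cd163, a gene of the rule, stood at 284 against 529 CPM and 197 against 393 CPM. The other rule genes were lower as well, with log2 ratios of -0.60 and -0.59 for F13a1 and -0.29 and -0.39 for Mrc1.

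**Figure D4:**
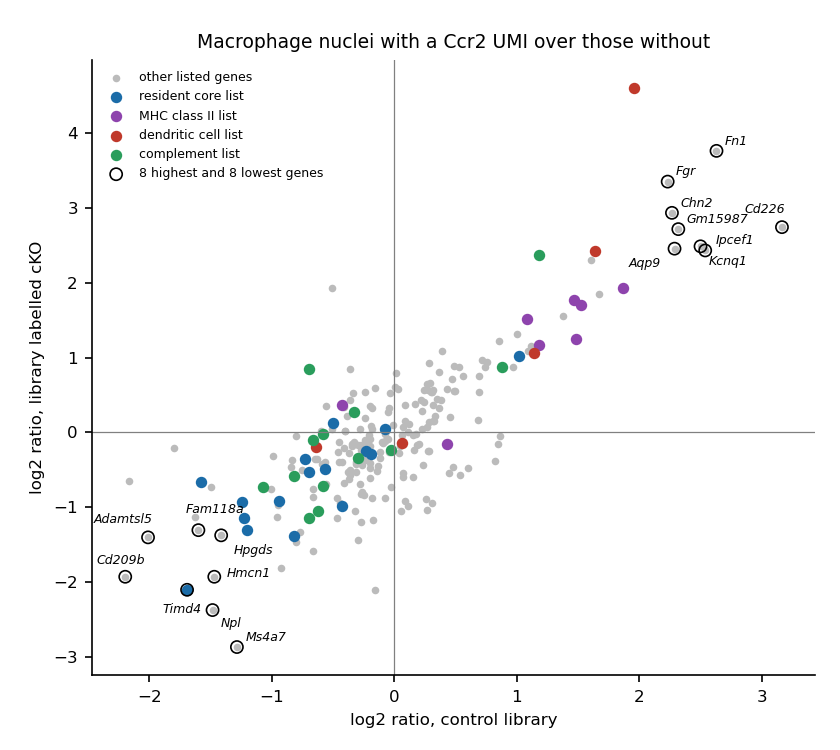
Log2 ratio of each gene between members with and without a Ccr2 UMI, control library on the x axis and cKO-labelled library on the y axis, with listed genes coloured by list and the 8 highest and 8 lowest ringed. Fn1 lay at 2.63 and 3.76 and Timd4 at -1.69 and -2.10.

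By list, MHC class II genes had medians of 1.33 and 1.38 with Ccr2 (6 of 8 higher in both libraries) and resident core genes -0.71 and -0.59 (13 of 16 lower), against -0.00 and -0.01 for all genes. Complement genes had -0.58 and -0.23 (9 of 13 lower), and efferocytosis genes 0.23 and 0.39 (11 of 17 higher). Among all 5379 genes, 1695 were higher and 1794 lower in both libraries. Markers of other cells moved in part with this division. Dendritic genes summed to 749 against 413 CPM and 788 against 364 CPM, with Flt3 at 19 and 6 UMIs in the control library and 7 and 10 UMIs in the cKO-labelled library and Zbtb46 at 85.3 against 81.6 CPM and 55.1 against 60.9 CPM. The T-cell gene Cd3e had 3 and 2 UMIs in the control library and 0 and 4 UMIs in the cKO-labelled library, and B and T cell genes together 2136 against 2569 CPM and 2242 against 2733 CPM. The monocyte gene Ly6c2 had 1 and 1 UMIs in the control library and 0 and 1 UMIs in the cKO-labelled library. The part of dendritic RNA in the result was not tested. Adipocyte genes were lower with Ccr2, at 13378 against 15847 CPM and 16053 against 20817 CPM.

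Timd4 and Ccr2 were set against each other nucleus by nucleus. Of members with Timd4, 12.7% (7.96 to 19.0) and 7.95% (3.26 to 15.7) also had Ccr2, against 32.9% (28.4 to 37.5) and 27.9% (22.5 to 33.7) of members without it. The share with MHC class II showed no such difference by Lyve1. It was 63.1% and 66.3% of members with Lyve1 against 68.0% and 61.2% of those without, with overlapping intervals. At 1000 UMIs per nucleus it was 23.5% and 33.3% against 31.8% and 29.3%, again with overlapping intervals. By level, the MHC class II list was lower with Lyve1, with the medians of -0.69 and -0.73 given above. Of members with Ccr2, 85.7% and 83.8% had MHC class II, against 59.5% and 56.3%, and 46.6% and 48.8% had Fn1, against 24.2% and 18.9%. At 1000 UMIs per nucleus, Ccr2 was in 4.69% (0.977 to 13.1) and 2.86% (0.0723 to 14.9) of nuclei with Timd4 against 12.9% (10.1 to 16.0) and 9.80% (6.71 to 13.7), the same direction with overlapping intervals. At that depth Fn1 was in 28.6% and 29.0% of nuclei with Ccr2 against 11.8% and 11.9%. MHC class II was then in 52.9% against 28.2% in the control library and 35.5% against 29.0% in the cKO-labelled library, where the intervals overlapped.

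Each division was made again in the barcodes kept out by Bank1 alone, which were not members. They met the same conditions on the 3 macrophage genes and came from the same 2 libraries, so they are not a replicate. Of the 208 genes higher with Ccr2 in members, 194 were higher in those barcodes in both libraries and 130 (62.5%) at least 1.5 times, where 3.16% of all genes were. Of the 164 lower genes, 51 (31.1%) were at least 1.5 times lower there, against 1.95% of all genes. Fn1 had log2 ratios of 2.80 and 3.45 there and Timd4 -1.62 and -2.03. All 16 genes that lead the division by Ccr2 kept their direction in both libraries. For the division by Lyve1 the counts were 12 of 32 higher (37.5%, all genes 0.744%) and 43 of 114 lower genes (37.7%, all genes 1.69%). Among its leading genes Cd83, an activation marker, had -0.06 and 0.33 there after 1.06 and 1.10 in members. For MHC class II, 37 of 89 higher (41.6%, all genes 1.4%) and 5 of 26 lower genes (19.2%, all genes 0.353%) were again at least 1.5 times apart.

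Between the libraries, most genes of the members stood at close to the same level. Of 8659 genes with at least 50 UMIs, 518 (5.98%) were at least 1.5 times higher in the cKO-labelled library and 304 (3.51%) at least 1.5 times lower, 822 (9.49%) in all, and the median log2 ratio was 0.01. Of 6309 genes with at least 100 UMIs, 48 and 12 had an interval wholly beyond 1.5 times. Of these, 47 of the 48 and 11 of the 12 had at least 50% of their macrophage level in lymphocyte nuclei. All 58 had the same direction there, and in 52 the lymphocyte interval was clear of 0. Acly, which makes acetyl-CoA for fatty acid synthesis, had 238 and 696 CPM in members and a log2 ratio of 1.54, and 1.13 in lymphocyte nuclei. Fasn, the fatty acid synthase, had 180.3 and 483 CPM and 1.42, and 1.25 in lymphocyte nuclei. The pancreatic gene Cpb1 had 1.98, and 3.30 in lymphocyte nuclei. In the other direction Gm42418, which overlaps ribosomal RNA, had 27249.5 and 14299 CPM, log2 ratios of -0.93 in members and -0.86 in lymphocyte nuclei.

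In 6 of the 58, named after their values were seen, the lymphocyte interval included 0. Hivep1, a zinc-finger transcription factor, stood at 146 and 79.3 CPM, a log2 ratio of -0.88 (-1.18 to -0.59), against -0.12 (-0.36 to 0.11) in lymphocyte nuclei. Its 405 control UMIs were spread over nuclei, with at most 9 in 1 of them, and the ratio was -0.91 without the richest nucleus of each library and -0.37 with Bank1 taken out of the limit. Pccb, a subunit of the mitochondrial propionyl-CoA carboxylase, stood at 22.8 and 55.4 CPM, a log2 ratio of 1.28 (0.80 to 1.77), against 0.29 (-0.17 to 0.75), and its ratio with Bank1 taken out of the limit was 0.70. Tmem140, a membrane protein, had -1.32 (-2.10 to -0.61) against -0.28 (-0.82 to 0.24), and -0.36 with Bank1 taken out of the limit. The unnamed locus 1700054A03Rik had 0.98 (0.71 to 1.26) against 0.26 (-0.00 to 0.52). The other two rested in part on single nuclei: 57 of the 125 control UMIs of Tmem108 lay in 1 nucleus, without which its ratio went from -1.64 to -0.90, and Cacna1e, a calcium channel, went from -1.29 to -0.20 without the 3 richest nuclei of each library. None of these 6 differences has a replicate check.

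**Figure D5:**
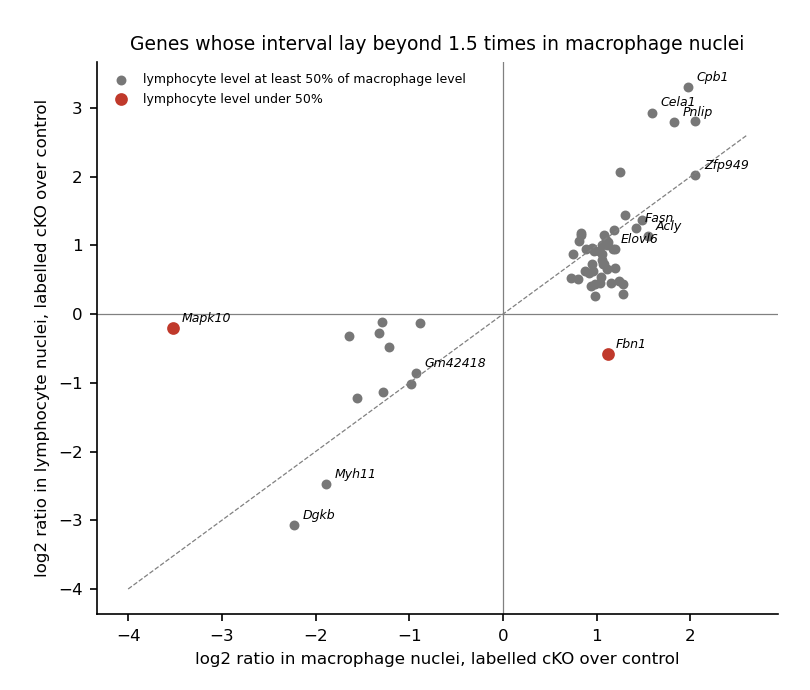
Log2 ratio (cKO-labelled over control) of 60 genes whose interval lay beyond 1.5 times, in macrophage nuclei (x axis) and lymphocyte nuclei (y axis), with a dashed line where both are equal. Fbn1 and Mapk10, in red, were the 2 genes with under 50% of their level in lymphocyte nuclei.

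The 2 genes that remained rested on single nuclei. Fbn1, the fibrillin of elastic microfibrils at chr2:125300594-125507993, had 357 and 444 UMIs and 129 and 279 CPM, a log2 ratio of 1.12, 0.91 to 1.32. In the cKO-labelled library 3 nuclei held 166, 79 and 47 of its UMIs, and without the 3 nuclei with the most UMIs in each library the ratio was -0.19. Mapk10, a Jun kinase of neurons at chr5:102907948-103211334, had 100 and 5 UMIs, a log2 ratio of -3.52, and 1 control nucleus held 86 of the 100.

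Genes at least 2 times the lymphocyte level in both libraries, 538 in number and chosen after the data were seen, were counted next. Of these 5 (0.929%) were at least 1.5 times higher in the cKO-labelled library and 31 (5.76%) lower, 378 had a ratio below 0 and the median was -0.14. The adipocyte genes stood in members at 38.5% and 45.6% of their level in adipocyte nuclei. With an adipocyte profile subtracted from each library the median was 0.00, and the part of adipocyte RNA in these counts was not tested. None of the 434 with at least 100 UMIs had an interval beyond 1.5 times. The lower genes included Pltp, the phospholipid transfer protein, with 148 and 82.5 CPM and a log2 ratio of -0.85, -1.14 to -0.56. Gas7, a cytoskeletal adaptor, had 991 and 622 CPM and -0.67, and Tnip3, an inhibitor of NF-kB signalling, 51.7 and 27.1 CPM and -0.93. Among the markers, of which the first 3 chose the members, F13a1 had -0.15, -0.20 to -0.10, Mrc1 -0.08, -0.16 to -0.00, Cd163 -0.43, -0.58 to -0.28, Aoah -0.53, -0.71 to -0.35 and Lair1 -0.28, -0.55 to -0.01.

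By list, the differences between the libraries were small, and most of the macrophage lists given here had a median below 0. The resident core list had 7 genes higher and 13 lower of 20, with a median of -0.13, which was 0.02 with the adipocyte profile subtracted and 0.02 with Bank1 taken out of the limit. The identity factors had a median of -0.16 (6 higher and 13 lower of 19), the efferocytosis list -0.17 (3 and 14 of 17), the complement list 0.00 (8 and 7 of 15) and the MHC class II list -0.10 (5 and 5 of 10), beside 0.01 for all genes, 52.0% of which had a ratio above 0. The CSF1 and fractalkine receptor list had -0.13 (4 and 11 of 15), the scavenger and lectin list -0.18 (4 and 8 of 12), the monocyte-derived list -0.26 (1 and 6 of 7), the pattern recognition list -0.12 (4 and 9 of 13), the interferon response list -0.21 (3 and 8 of 11), and the list of growth and vascular factors -0.09 (8 and 10 of 18). Lists with a median above 0 included haem and iron at 0.09 (9 and 7 of 16) and lipid-associated macrophages at 0.37 (8 and 3 of 11), beside adipocyte genes at 0.23 (14 and 6 of 20). Among their genes, C1qb had a log2 ratio of -0.55, -0.93 to -0.19, Itgam -0.55, -0.82 to -0.28 and Cd86 0.33, 0.10 to 0.56. The shares of members with Lyve1, with MHC class II and with Ccr2, given above, had overlapping intervals between the libraries. In the barcodes kept out by Bank1, Ccr2 was in 35.0% (31.5 to 38.7) and 26.5% (22.1 to 31.2), intervals that did not overlap.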

How the data were processed

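Nuclear RNA of 2 libraries, 1 per genotype, was read as UMI counts per gene and barcode. The deposited counts were made by the authors with Cell Ranger 6.1.2 on mm10, per the submitters' processing notes, from a droplet kit for transcript ends, per the labels' protocols. No other step is given in the sources used here. Barcodes and members were chosen by the rule given above, in Python 3.11.15 with numpy 2.4.6, scipy 1.17.1, pandas 2.3.3 and scanpy 1.11.5 (Scrublet), and counts were summed per nucleus class. Levels have exact Poisson, shares exact Clopper-Pearson and ratios exact conditional binomial intervals of 95%, tested on simulated data. Positions came from GENCODE's GRCm38 annotation for 32235 of 32285 identifiers. Members and the 32 gene lists (2 listed genes had no row) were chosen with earlier results of these data known. Named were the 25 genes highest in members against the rest among those at 50 CPM or more, the 12 highest and lowest against dendritic nuclei, the 8 highest and lowest of each division by the ratio nearer to 1, the 12 most variable, genes between the libraries with an interval beyond 1.5 times and a lymphocyte level under 50% of the macrophage level, and listed genes whose role bears on their list. Alternatives changed the rule's bounds, UMI minimum, depth, doublets, free RNA and scaling (TMM in edgeR 4.0.16, size factors in DESeq2 1.42.0). Some listed genes are not reported here.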

Additional observations from a re-analysis of the deposited data

How the results depend on the processing

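The share of members followed the rule's bounds (control, then cKO-labelled library): 5.68% and 5.32% with 3 UMIs of the rule genes, 4.42% and 3.56% with 6, 4.63% and 3.90% with 12 per 10,000, 1.43% and 1.44% with no UMI of the limiting genes, 2.17% and 2.01% with at most 2 adipocyte UMIs, and 11.1% and 9.29% without Bank1 in the limit, the last chosen after seeing the data. Counts of genes at least 1.5 times higher and lower between the libraries, 518 and 304, were 1283 and 1062 with nuclei thinned to 1000 UMIs, 949 and 838 with at most 2 adipocyte UMIs, 254 and 107 without Bank1 in the limit, 1280 and 937 with the adipocyte profile subtracted (both of these added after seeing the data), 1678 and 1235 at a minimum of 10 UMIs (13342 genes) and 107 and 53 at 200 (4162 genes). TMM, DESeq2 size factors, removal of marked doublets, 6 rule UMIs, mean CPM per nucleus and subtraction of 10% free RNA kept both counts within 1.5 times. The 174 genes at least 4 times the rest were 108 against lymphocyte nuclei and 96 by the mean per nucleus, and the 267 variable genes were 80 at 1000 UMIs. With nuclei thinned to 2000 UMIs the Lyve1 division had 106 higher and 274 lower genes, the MHC class II division 75 lower and the Ccr2 division 294 lower, and the last had 105 in barcodes kept out by Bank1. The ratio of Fbn1 turned to -0.69 with at most 2 adipocyte UMIs and to -0.19 without the 3 richest nuclei of each library, and that of Cacna1e to 0.36 with at most 2 adipocyte UMIs. Of 31 lists, 17 changed the sign of their median with at most 2 adipocyte UMIs, 7 without doublets, 6 when thinned and 5 or fewer under each other setting. Fewer UMIs or genes account for counts under thinning and the UMI minimum by construction; otherwise the cause was not tested. No paired analysis was possible because each genotype had 1 library, and leaving out a library leaves no comparison.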

Other observations

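Of 23 listed cytokine and effector genes, 8 were at least 2 times the rest in both libraries and 5 below it in both. The list summed to 483 and 460 CPM in members, 266 and 238 CPM in lymphocyte nuclei and 142 and 139 CPM in the rest. Some of its genes were nearly undetected: Il1b and Il12b had 0 UMIs in both libraries, Tnf 2 and 2 UMIs, Il6 1 and 3 UMIs, Nos2 0 and 3 UMIs and Il10 4 and 2 UMIs. Lipid mediator enzymes were present, with Alox5, which begins leukotriene synthesis, at 87.8 and 87.5 CPM and Ptgs1, a prostaglandin synthase, at 59.6 and 50.4 CPM. Of the chemokines, Ccl6 stood at 103 and 91.9 CPM and Ccl9 at 43.7 and 31.5 CPM, while Cxcl13, which draws B cells, had 23 and 0 UMIs. Tlr4, the receptor for lipopolysaccharide, stood at 109 and 127 CPM, and Ly86, part of a related receptor, at 296 and 240.4 CPM. Cd14, which hands lipopolysaccharide to Tlr4, had 6 and 1 UMIs.

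Of iron genes, Slc11a1, which moves iron out of phagosomes, stood at 33.6 and 33.4 CPM, 8.65 and 9.90 times the rest, and Tfrc, the transferrin receptor, at 166 and 194 CPM. Genes listed for lipid-associated macrophages were mixed: of 20, 4 were at least 2 times the rest in both libraries and 4 below it in both. Examples were Trem2 at 13 and 9 UMIs, Gpnmb at 3 and 5 UMIs and Spp1 at 0 in both libraries. Lpl, a lipase on that list, stood at 723 and 947 CPM beside 639 and 756 CPM in lymphocyte nuclei. Slc6a2, the noradrenaline transporter described in nerve-associated macrophages, had 0 UMIs in both libraries, which allows a UMI in up to 0.512% and 0.857% of members, while Maoa, which breaks noradrenaline down, stood at 36.5 and 33.4 CPM.

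Of 20 clock and glucocorticoid target genes compared between the libraries, 16 had a ratio above 0 and 4 below it, with 4 at least 1.5 times up and 2 at least 1.5 times down in the cKO-labelled library. The median log2 ratio was 0.30, where 52.0% of all compared genes were above 0, and 16 of the 21 listed lay below the rest in both libraries. Dbp, a clock output factor, stood at 28.5 and 49.1 CPM in members and 17.6 and 41.6 CPM in lymphocyte nuclei, and Arntl, the positive arm of the clock, at 93.2 and 55.4 CPM in members and 92.1 and 77.7 CPM in lymphocyte nuclei. The hour of tissue collection is not given in the sources used here, and its part in these values was not tested.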
